A study of Mus musculus with 4 samples.

Results

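The 10 genes described here are 5 enzymes of the urea cycle, Cps1, Otc, Ass1, Asl and Arg1, and 5 other genes known from periportal liver tissue, Gls2, Hal, Sds, Etnppl and Cyp2f2. They were chosen by gene symbol from the 31053 genes of the deposited tables, and their levels were read in hepatocyte-like cells of all 4 single-cell libraries. All 10 were found. In every comparison between libraries all 10 met the minimum level, which had to be reached in either library compared, not in both.

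The urea cycle turns ammonia, which is toxic, into urea. Its first steps run in the mitochondria of hepatocytes and its last steps in the cytosol. In the liver lobule these enzymes are highest around the portal vein and fall towards the central vein, where hepatocytes instead use Glul, glutamine synthetase, to capture the ammonia that remains. Periportal hepatocytes are also the main site of amino acid breakdown and glucose production.

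The study compared liver cells of C57BL/6 mice in 4 groups with 1 library each, so no difference between groups has a replicate and no test was made. The control library is labelled as control diet. The low-AFP library is labelled CD-HFD with low AFP (alpha-fetoprotein, a fetal liver protein used as a marker of liver cancer). The high-AFP library carries the AFP label but a title naming control diet and a file name naming CD-HFD, so it is called by AFP here and its diet is uncertain. The HCC library came from cells of a hepatocellular carcinoma region, with no AFP or diet in its own title. The other libraries are called non-tumour here only because their titles do not name HCC. Whether they hold tumour cells is not given. All 4 are aged 15 months by their titles and 17 months by another label. How many animals went into each library is not given in the sources used here. All protocols describe collagenase perfusion, hepatocytes and other parenchymal cells purified on 30% Percoll, other cells sorted for viability, and equal mixing. For the HCC region it is not stated whether both fractions were used.

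Levels are sums of unique molecular identifiers (UMIs, each 1 captured transcript) over the hepatocyte-like cells of a library, per 1000000 nuclear-encoded UMIs (CPM). Ranges in parentheses after a level are exact 95% Poisson intervals, and after a share of cells exact (Clopper-Pearson) binomial intervals. Both cover counting error only. Where 4 values stand in a row without names, they run from control through low-AFP and high-AFP to HCC. Hepatocyte-like cells were 9 clusters named by 13 hepatocyte markers, clustered without the 10 genes. They numbered 2387, 1936, 3350 and 1153, of 6036, 5129, 7902 and 7491 cells kept. In each library all 13 markers were higher in these cells than in T-like cells, by at least 7.77-fold.

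The HCC library stood apart. Its hepatocyte-like cells had a median of 2204 UMIs, against 13808 to 19451.5 in the other libraries, and 20 cells held 18.3% of the class's nuclear UMIs. Mitochondrial UMIs made up 3.99% in the median HCC cell and 14.9% to 22.0% in the others. The 8 T cell markers summed to 43.3 CPM in HCC hepatocyte-like cells and to 2.08 to 4.56 CPM in the other libraries, with all 8 detected in each. The 8 macrophage markers summed to 16.8, 32.7, 49.2 and 60.2 CPM. Of 9 endothelial markers, which summed to 12.03 CPM in HCC and 31.1 to 72.8 CPM elsewhere, Kdr was at 0 in HCC. The part of these differences in the results was not tested.

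The makeup of the class also differed. Cluster 1, low in Glul, held 66.6% of the control cells and 0.174% of the HCC cells. In HCC the class was mainly cluster 17, led by Oat and Glul (33.0%), cluster 22, led by Akr1c18 and Afp (29.8%), and cluster 3 (25.3%). Cluster 3 was found in all 4 libraries, with 9.47% of the control class. In the non-tumour libraries its cells had little nuclear RNA: Malat1, a transcript retained in nuclei, was at 27.9, 244 and 104 CPM in their cluster 3, against 1869 CPM in control cluster 1. Median mitochondrial shares were 1.83% in control cluster 3 and 22.7% in control cluster 1. In HCC, Malat1 was at 1053 CPM in cluster 3, 1505 CPM in cluster 17 and 15570 CPM in cluster 22, and median mitochondrial shares of 2.75%, 3.67% and 5.10%. Cluster 20 was the reverse, with Malat1 at 63210 to 90280 CPM in the 3 non-tumour libraries. Results are therefore also given for cluster 3 alone and without clusters 3 and 20.

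Upstream sequence from RefSeq (build GRCm38.p6) was at hand for 5 of the 10 genes: Ass1, Etnppl, Cyp2f2, Hal and Otc. The 250 bases before the annotated start are shown, all on the plus strand, for Hal and Cyp2f2, which were among the genes lowest in HCC relative to control, and for Otc, which was nearest to its control level there. They lie at chr10:93488518-93488767 (Hal), chr7:27119705-27119954 (Cyp2f2) and chrX:10252055-10252304 (Otc). Capitals mark matches to the 6 motifs that were searched on both strands.
Hal: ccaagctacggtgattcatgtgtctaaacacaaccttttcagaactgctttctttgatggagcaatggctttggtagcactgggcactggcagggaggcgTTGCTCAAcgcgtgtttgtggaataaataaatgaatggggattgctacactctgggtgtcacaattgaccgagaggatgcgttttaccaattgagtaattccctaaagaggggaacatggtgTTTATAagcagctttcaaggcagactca
Cyp2f2: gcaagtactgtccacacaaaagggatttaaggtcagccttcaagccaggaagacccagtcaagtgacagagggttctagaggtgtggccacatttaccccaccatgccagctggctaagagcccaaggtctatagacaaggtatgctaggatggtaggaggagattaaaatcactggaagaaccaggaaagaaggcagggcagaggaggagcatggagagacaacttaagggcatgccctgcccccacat
Otc: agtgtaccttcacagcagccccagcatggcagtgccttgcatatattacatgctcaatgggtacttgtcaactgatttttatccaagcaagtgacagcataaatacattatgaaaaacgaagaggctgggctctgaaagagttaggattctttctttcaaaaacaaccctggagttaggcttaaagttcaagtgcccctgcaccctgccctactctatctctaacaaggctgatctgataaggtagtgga
Only the Hal sequence held a match. It had TTGCNNAA, a C/EBP motif, at 150 to 143 bases before the start, and the reverse complement of TATAAA at 28 to 23 bases before it. Of 32851 RefSeq promoters, 9.56% held TTGCNNAA and 12.4% held TATAAA in windows of the same length. CAAAGTCC (HNF4, in 1.20%), TGACGTCA (a cyclic AMP response element, in 1.55%), an HNF1 motif and a glucocorticoid receptor motif had no match in the windows of the 5 genes.

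Cps1 and Otc carry out the mitochondrial steps. Cps1, carbamoyl phosphate synthetase, makes carbamoyl phosphate from ammonia and is the rate-limiting entry to the cycle. Control cells held Cps1 at 2511 CPM (2493 to 2530). The low-AFP cells held it at 1782 CPM (1769 to 1796), the high-AFP cells at 1918 CPM (1905 to 1930) and the HCC cells at 159 CPM (150 to 169). The 3 non-tumour libraries lay within 1.41-fold of each other, and HCC was 15.8-fold below control and 12.04-fold below high-AFP. Otc, ornithine transcarbamylase, joins carbamoyl phosphate to ornithine to give citrulline. Across the 4 libraries Otc was at 619 CPM (609 to 628), 571 CPM (563 to 578), 651 CPM (643 to 658) and, in HCC, 453 CPM (437 to 469). Summed over the HCC class, the enzyme of the next step thus stood at 1.37-fold below control, where Cps1 was 15.8-fold below it. These sums do not describe single cells: 1719 of the 3010 HCC UMIs of Otc came from cluster 3. Without clusters 3 and 20, Otc was at -1.30 on the log2 scale between HCC and control.

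Ass1, Asl and Arg1 are cytosolic. Ass1, argininosuccinate synthetase, was at 2677 CPM (2658 to 2696), 1886 CPM (1871 to 1900), 2555 CPM (2540 to 2570) and 1366 CPM (1338 to 1394). Asl, argininosuccinate lyase, which releases arginine, was at 497 CPM (489 to 505), 280 CPM (274 to 285), 311 CPM (306 to 316) and 258 CPM (246 to 270). Asl was lower than control in both AFP libraries, and HCC, summed over the class, was a little below them. Of the 1715 HCC UMIs of Asl, 762 came from cluster 3. Without clusters 3 and 20, Asl was at -1.35 on the log2 scale between HCC and control. Arg1, arginase, which splits arginine into urea and ornithine, was at 1184 CPM (1171 to 1197), 958 CPM (948 to 969), 1024 CPM (1015 to 1034) and 556 CPM (538 to 574). Each of the 3 was lowest in HCC and highest in control.

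Gls2, Hal and Sds act in the breakdown of amino acids. Gls2, the liver glutaminase that frees ammonia from glutamine beside Cps1, was at 371 CPM (363 to 378), 219 CPM (215 to 224), 300 CPM (295 to 305) and 80.9 CPM (74.2 to 88.1). Hal, histidine ammonia-lyase, was at 531 CPM (523 to 540), 288 CPM (283 to 294), 291 CPM (286 to 296) and 54.7 CPM (49.3 to 60.7). Hal was the gene of the 10 for which 2 neighbouring libraries, low-AFP and high-AFP, had overlapping counting intervals. Sds, serine dehydratase, which turns serine into pyruvate, was at 314 CPM (307 to 320), 285 CPM (280 to 291), 388 CPM (382 to 394) and 125 CPM (117 to 134), highest in the high-AFP library.

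Etnppl, which breaks down phosphoethanolamine, was below control in each of the other libraries. It was at 235 CPM (230 to 241), 104 CPM (101 to 108), 95.3 CPM (92.5 to 98.2) and 8.42 CPM (6.36 to 10.9), the last from 56 UMIs. Cyp2f2, a cytochrome P450 used as a periportal marker, was at 1025 CPM (1013 to 1037), 716 CPM (708 to 725), 608 CPM (601 to 615) and 38.4 CPM (33.8 to 43.4). Both were highest in control and lowest in HCC, as the plot of levels by library shows.

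**Figure D1:**
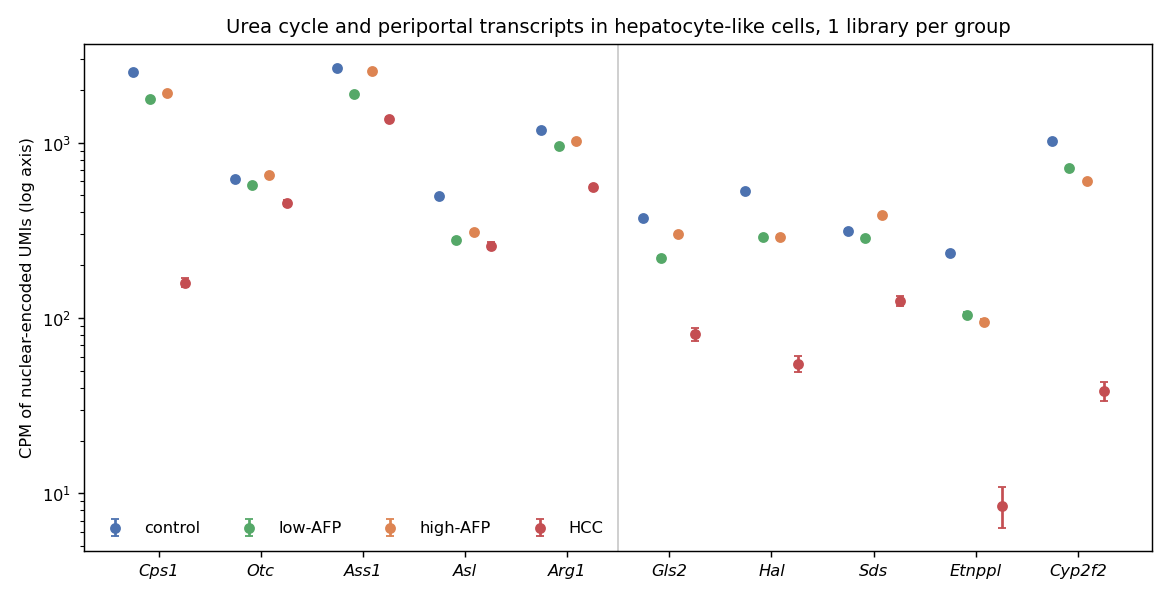
Level of each of the 10 genes in hepatocyte-like cells (CPM of nuclear-encoded UMIs, log axis) in the 4 libraries; bars are exact 95% Poisson intervals for counting error, often smaller than the points, and the grey line separates the urea cycle enzymes (left) from the other genes. Cps1 in HCC, at 159 CPM, lies far below its other libraries, while Otc lies between 453 and 651 CPM in all 4.

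Differences between libraries are given as log2 folds after adding 10 CPM to each level, and a gene counts as lower or higher at 2-fold or more. A gene was measured where it had at least 10 CPM in either library compared. Between low-AFP and control 1 of 10 genes was lower, Etnppl (-1.10), and 0 were higher, where 0.473% of all 6979 measured genes were lower and 0.974% higher. All 10 were below control, from -0.11 for Otc to -1.10, with a median of -0.51 against 0.04 for all genes. Between high-AFP and control 1 of 10 was lower, again Etnppl (-1.22), and 0 were higher, with 0.71% of all 7043 genes lower and 1.46% higher. Here Sds (0.30) and Otc (0.07) were above control and the other 8 below, with a median of -0.34 against 0.05. These comparisons share the control library. With 50 CPM added in place of 10, 0 of 10 genes were past 2-fold in either comparison. A mitochondrial limit of 15% in place of 30% left 396 of 2387 control, 873 of 1936 low-AFP and 1700 of 3350 high-AFP cells. It took out most cells of control clusters 1, 2 and 15, where median mitochondrial shares were 22.7%, 24.9% and 24.4%. With that limit 4 genes were lower in the low-AFP comparison and 2 in the other, with 0.798% and 1.53% of all genes. Among cells of 1000 to 5000 UMIs these counts were 3 and 4, with 4.29% and 5.84% of all genes.

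Between high-AFP and low-AFP 0 of 10 genes were lower and 0 higher, with 0.142% of 7037 genes lower and 0.256% higher. Values ran from -0.23 for Cyp2f2 to 0.44 for Ass1, and all 5 urea cycle enzymes were slightly above low-AFP, by 0.10 to 0.44.

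Between HCC and control 7 of 10 genes were lower and 0 higher, where 6.3% of 7894 genes were lower and 13.8% higher. The largest differences were in Cyp2f2 (-4.42), Cps1 (-3.90), Etnppl (-3.73) and Hal (-3.06). Gls2 (-2.07), Sds (-1.26) and Arg1 (-1.08) were also past 2-fold, while Ass1 (-0.97), Asl (-0.92) and Otc (-0.44) were not. The median was -0.97 for the 5 urea cycle enzymes and -3.06 for the other 5 genes, against 0.27 for all genes. Against high-AFP, 6 of 10 were lower and 0 higher in HCC, where 4.11% of 7859 genes were lower and 6.74% higher. Those were Cyp2f2 (-3.68), Cps1 (-3.51), Etnppl (-2.52), Hal (-2.22), Gls2 (-1.77) and Sds (-1.56). In both HCC comparisons Etnppl, at 8.42 CPM in HCC, met the minimum of 10 CPM only in the other library. Arg1 (-0.87), Ass1 (-0.90), Otc (-0.51) and Asl (-0.26) were not past 2-fold. The mitochondrial limit of 15% left 396 of 2387 control cells and 978 of 1153 HCC cells. With it Cps1 was at -2.83 and 9 genes were lower than in control, with 6.09% of all genes. With doublets kept, 5 were lower, with 9.61% of all genes, and Otc was at 0.11. Without the 20 deepest cells, Cps1 in HCC was at 112 CPM, Otc at 512 CPM, Ass1 at 1524 CPM and Cyp2f2 at 18.8 CPM.

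Most HCC UMIs of Ass1 (6024 of 9081), Arg1 (2135 of 3695) and Otc (1719 of 3010) came from cluster 3. In HCC cluster 3, 292 cells, Ass1 was at 4512 CPM (4399 to 4628), Arg1 at 1599 CPM (1532 to 1669) and Otc at 1288 CPM (1227 to 1350). In HCC cluster 17, 381 cells, Ass1 was at 597 CPM (554 to 643), Arg1 at 248 CPM (221 to 278) and Otc at 541 CPM (500 to 584). In HCC cluster 22, 344 cells in which Afp was at 436 CPM, Ass1 was at 658 CPM (625 to 692), Arg1 at 385 CPM (360 to 411) and Otc at 139 CPM (125 to 155). Without clusters 3 and 20, all 10 genes were at least 2-fold lower in HCC than in control, where 6.25% of 8035 measured genes were lower and 15.6% higher. Otc was then at 243 CPM in HCC and 612 CPM in control (-1.30), Ass1 at 575 and 2589 CPM (-2.15) and Arg1 at 292 and 1169 CPM (-1.96). Within cluster 3 alone, 4 of 10 genes were lower in HCC, where 4.79% of 6390 measured genes were lower and 7.25% higher, and Arg1 (0.44) and Otc (0.52) were above control.

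Cps1 was low in cluster 3 of every library, at 415, 245, 404 and 157 CPM, while Ass1 there was at 5010, 4356, 5753 and 4512 CPM. In cluster 1, Cps1 was nearly level over the 3 non-tumour libraries, at 2766, 2594 and 2746 CPM. In cluster 2, which held 8.55%, 38.2% and 28.7% of the class there, it was at 2965, 1901 and 2029 CPM, and in cluster 15, high in Glul, at 1458, 343 and 489 CPM. Control was thus the highest of the 3 in clusters 2 and 15. Per Ass1 UMI there were 0.0829 Cps1 UMIs (0.0760 to 0.0902) in control cluster 3 and 0.975 (0.964 to 0.986) in control cluster 1. Cluster 3 made up 9.47%, 17.8% and 21.8% of the class in those 3 libraries. HCC was low in Cps1 in each of its large clusters, at 108 CPM (89.8 to 128) in cluster 17 and 143 CPM (128 to 159) in cluster 22. Within cluster 3, Cps1 was -1.35 on the log2 scale between HCC and control.

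Cluster 16, led by Gsta1 and Cbr3, was also low in Cps1 in the AFP libraries, at 136 CPM in low-AFP (56 cells) and 183 CPM in high-AFP (355 cells). Its median mitochondrial shares there were 2.12% and 2.41% and its Malat1 levels 961 and 534 CPM, against 20.9% and 18.6%, and 1750 and 2066 CPM, in cluster 1. Their part in the low Cps1 was not tested. Cluster 16 had Cyp2f2 at 534 and 420 CPM in those libraries, against 1108 and 929 CPM in cluster 1. Hal was at 19.7 and 60.7 CPM there, against 573 and 502 CPM in cluster 1, and the other genes were also below cluster 1. In HCC, cluster 16 had 14.3 CPM of Cyp2f2, from 5 UMIs. In control, cluster 20, high in nuclear RNA, was higher than cluster 1 in Asl (1295 against 533 CPM), Sds (1043 against 332 CPM) and Etnppl (590 against 282 CPM). Hal (1012 against 632 CPM) and Arg1 (1844 against 1267 CPM) were also higher. In the same cells Cps1 (1384 against 2766 CPM), Otc (235 against 637 CPM) and Ass1 (1026 against 2837 CPM) were lower, as were Gls2 and Cyp2f2. Not all of this held elsewhere. In low-AFP the counting intervals of Etnppl overlapped (267 and 244 CPM). In high-AFP Hal was lower in cluster 20 (338 against 502 CPM).

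**Figure D2:**
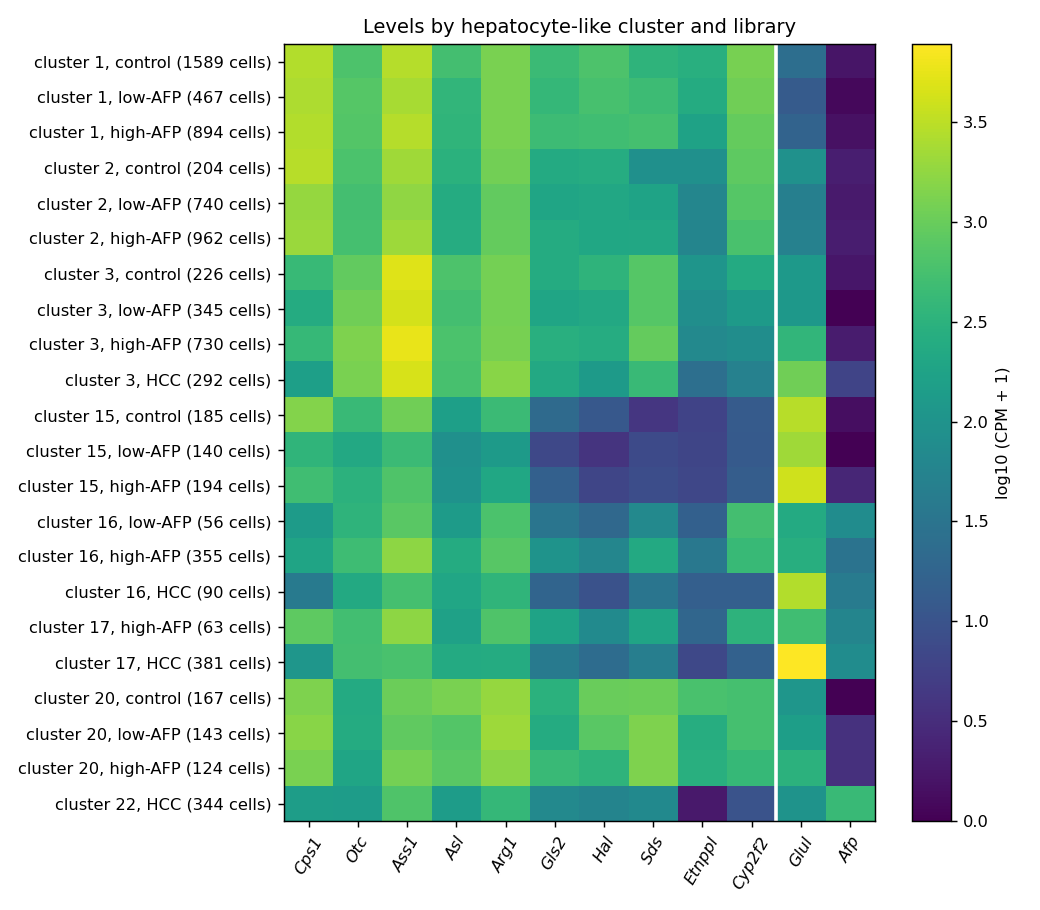
Level of the 10 genes, of Glul and of Afp (right of the white line) as log10 of CPM plus 1, in each hepatocyte-like cluster with at least 50 cells in a library. Cps1 is dark in cluster 3 of all 4 libraries, where Ass1 is brightest, and every HCC row is low in Cps1.

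Single cells were compared after each was thinned to 1000 UMIs, leaving out shallower cells, which left 2360, 1891, 3232 and 873 hepatocyte-like cells. A UMI of Cps1 was found in 83.2% (81.6 to 84.7), 66.7% (64.5 to 68.8), 62.7% (61.0 to 64.4) and, in HCC, 6.76% (5.18 to 8.63) of cells. Unthinned shares were 94.9%, 85.8%, 79.6% and 15.3%. In T-like cells, which should lack hepatocyte transcripts and had median depths of 3598.5 to 4311.5 UMIs, thinned shares for Cps1 were 10.2%, 7.28%, 8.57% and 0.240%. The HCC share of Cps1 was therefore low and above the background of its own library.

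Otc was found in 46.6%, 44.5%, 49.0% and 40.8% of cells thinned to 1000 UMIs, with 94.1%, 92.4%, 89.4% and 53.7% unthinned. At 1000 UMIs 280 of 1153 HCC cells were too shallow to be counted. Of cells thinned to 3000 UMIs, 83.7%, 75.9%, 80.4% and, in HCC, 60.5% (55.8 to 65.1) held Otc. The shares were thus closer at 1000 UMIs than at 3000 UMIs, where HCC was lowest. Its T-like background was 9.49%, 6.31%, 8.76% and 0.680%. Ass1 was found in 86.6%, 74.99%, 81.2% and 51.2% of thinned hepatocyte-like cells, with a larger background of 30.7%, 22.1%, 36.4% and 2.76%. Cyp2f2 went from 56.9% in control through 41.5% and 35.8% to 2.06% (1.23 to 3.24) in HCC, and Etnppl from 19.4% through 10.2% and 8.60% to 1.15%. The remaining genes, Asl, Arg1, Gls2, Hal and Sds, had thinned shares of 19.3% to 67.2% in the 3 non-tumour libraries. In HCC these 5 were at 4.81% for Hal to 35.9% for Arg1.

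**Figure D3:**
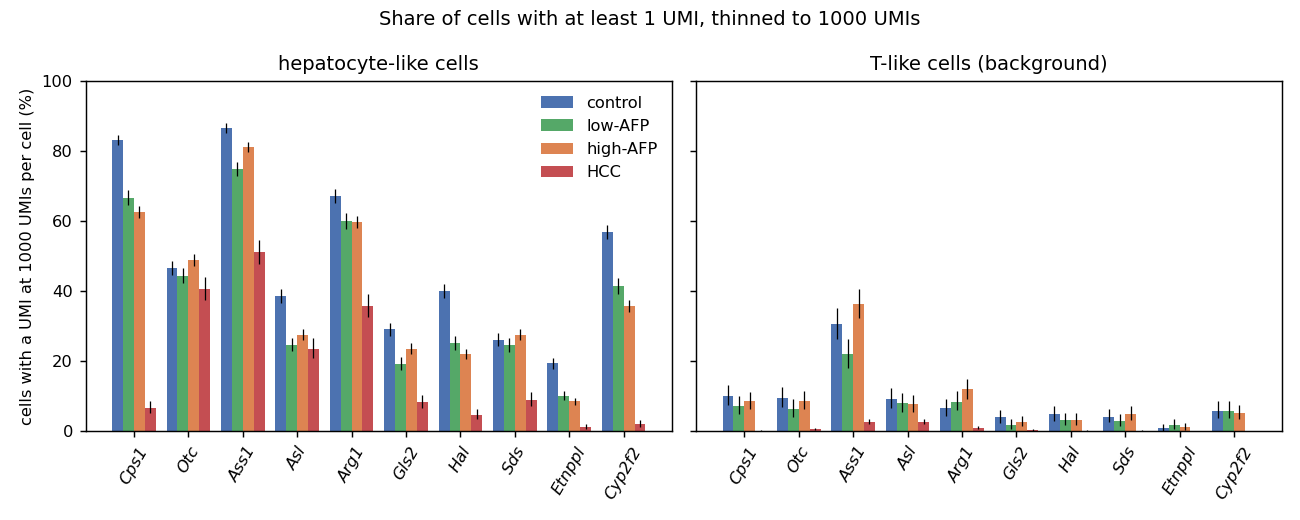
Share of cells with at least 1 UMI of each gene after thinning to 1000 UMIs per cell, in hepatocyte-like cells (left) and T-like cells (right); bars start at 0 and error bars are exact 95% binomial intervals. The HCC bar for Cps1 is 6.76% in hepatocyte-like cells, against 62.7% to 83.2% in the others.

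The 5 urea cycle enzymes were then counted together in each cell. At 1000 UMIs, a cell held a UMI of 3.22, 2.71, 2.80 and 1.58 enzymes on average. All 5 were found in 9.36% (8.22 to 10.6), 4.97% (4.04 to 6.05), 6.62% (5.79 to 7.53) and 1.49% (0.795 to 2.53) of cells. None was found in 1.06%, 5.34%, 5.42% and 25.4%. T-like cells held 0.662, 0.522, 0.735 and 0.0752 enzymes on average. At 3000 UMIs all 5 enzymes were found in 56.2%, 32.9%, 37.8% and 8.84% of 2147, 1662, 2645 and 441 cells.

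The Fano factor, the variance over cells divided by the mean, was taken at 3000 UMIs. It was highest in HCC for 7 of 10 genes: Otc, Ass1, Asl, Arg1, Gls2, Hal and Sds. That of Ass1 was 2.88, 4.503, 5.97 and 13.6, that of Arg1 was 1.44, 2.23, 1.97 and 5.59, and that of Sds was 2.22, 3.26, 3.50 and 5.63. Cps1 was highest in high-AFP, with 2.62, 3.88, 4.06 and 3.24. Levels of single cells were taken unthinned, at median depths of 2204 UMIs in HCC and 14407 in control, and the part of depth in them was not tested. The median HCC cell had 413 CPM of Ass1, and cells at the 90th percentile had 4857 CPM, against 2513 and 4155 CPM in control. For Cps1 the HCC median was 0 and the 90th percentile 228 CPM, against 2470 and 4098 CPM in control. Etnppl had a Fano factor of 1.11 in HCC, where a mean of 0.0318 UMIs leaves little to see.

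Position along the lobule is not recorded, so cells were ordered into 5 equal bins by an index of 12 genes known to be pericentral, among them Cyp2e1, Cyp1a2 and Oat, none of them among the 10. Between the highest bin (bin 5) and the lowest (bin 1) in control, 6 of 10 genes were lower, where 0.707% of all genes were. Sds went from 404 to 69.2 CPM (-2.39), Etnppl from 292 to 60.2 CPM (-2.11), Hal from 637 to 157 CPM (-1.95) and Cyp2f2 from 1169 to 349 CPM (-1.72). Gls2 (-1.62) and Asl (-1.19) were the other 2. Ass1 (-0.74), Arg1 (-0.60), Cps1 (-0.28) and Otc (-0.22) changed less along the index. Cps1 was at 2551, 2569, 2566 and 2755 CPM in bins 1 to 4 of control and at 2100 CPM in bin 5. Etnppl was at 292, 286, 279, 241 and 60.2 CPM over the 5 bins. For both the largest step was the last. However, the median control cell had 0, 1, 1, 3 and 10 index UMIs per 1000 in bins 1 to 5. The lowest bins were thus hardly separated by the index. The flat levels there and the place of the step therefore cannot be read as a shape along the lobule.

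In low-AFP 7 of 10 genes were lower in bin 5 (0.89% of all genes), and in high-AFP 5 of 10 (0.773% of all genes). All 10 were below 0 in each non-tumour library. Cps1 went from 1914 to 1205 CPM (-0.66) in low-AFP and from 2101 to 1281 CPM (-0.71) in high-AFP. Arg1 was at -1.07 and -0.99, and Sds at -2.95 and -2.59. These are folds within a library, and whether they differ between libraries has no replicate to test it.

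In HCC 7 of 9 measured genes were lower in bin 5, but so were 9.84% of all genes. The bins there held different clusters: 81.0% of bin 5 was cluster 17, 64.9% of bin 3 cluster 3 and 75.4% of bin 1 cluster 22. Arg1 went from 524 to 46.0 CPM (-3.25) and Ass1 from 1295 to 266 CPM (-2.24). Otc (273 to 352 CPM, 0.35) and Asl (199 to 229 CPM, 0.20) were above 0. Otc and Asl were thus about as high in bin 5 as in bin 1, where Arg1 and Ass1 were much lower in bin 5. Sds and Cyp2f2 had 0 UMIs in bin 5.

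**Figure D4:**
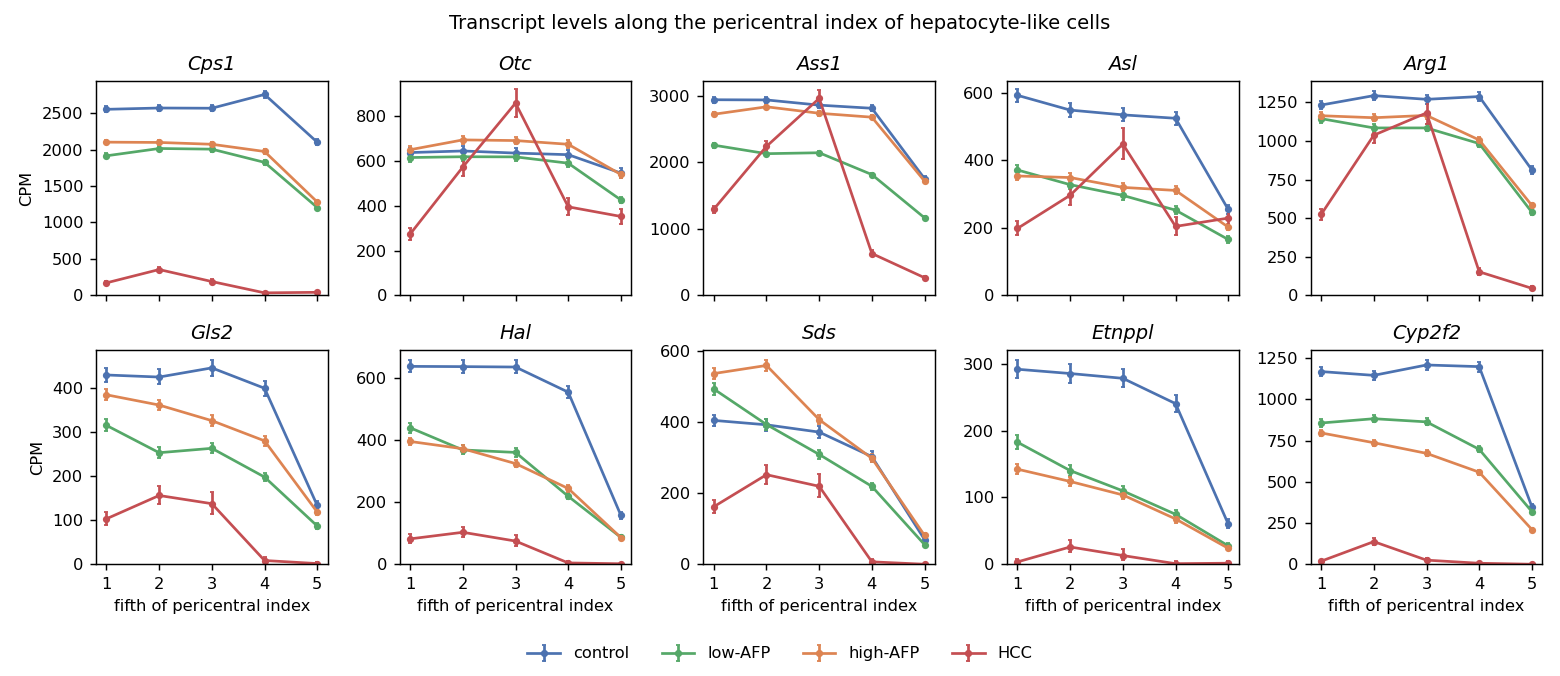
Level of each gene (CPM, linear axis from 0) in 5 equal bins of hepatocyte-like cells ordered by the pericentral index within each library, lowest to highest; bars are exact 95% Poisson intervals. In the 3 non-tumour libraries all 10 genes are lower in bin 5 than in bin 1, and in HCC bin 3 is highest for Ass1 (2959 CPM) and Otc (857 CPM).

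Cells with Glul at 1000 CPM or more, from at least 3 UMIs, were grouped as Glul-high. Glul is a pericentral gene, but whether Glul-high cells of HCC have a central identity was not tested. Glul-high cells numbered 52, 51, 165 and 453. Control had Cps1 at 157 CPM in these cells and 2565 CPM in the rest, low-AFP had 27.3 and 1824 CPM, and high-AFP had 92.0 and 1981 CPM. In HCC Cps1 was at 4.45 CPM (2.22 to 7.96), from 11 UMIs, in Glul-high cells and at 251 CPM in the rest. Cps1 was lower in the Glul-high cells of all 4 libraries.

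In Glul-high cells of every library, Otc and Asl differed less from the rest than Cps1, Ass1 and Arg1 did. In HCC, Ass1 was at 252 CPM in Glul-high cells and 2025 CPM in the rest, and Arg1 at 51.4 and 854 CPM. Otc was at 297 and 545 CPM and Asl at 211 and 286 CPM, log2 differences of -0.85 and -0.42. In Glul-high cells of control, Otc (-1.01) and Asl (-1.86) were lower than in the rest by more, with Ass1 at -2.21 and Arg1 at -3.22. Otc and Asl were at -2.37 and -2.19 in low-AFP, with Ass1 at -4.21 and Arg1 at -3.67. In high-AFP they were at -1.42 and -1.66, with Ass1 at -2.68 and Arg1 at -3.58. Median depth was 2016 UMIs in the Glul-high HCC cells and 2330 in the rest, and 7924 and 14175 in high-AFP.

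**Figure D5:**
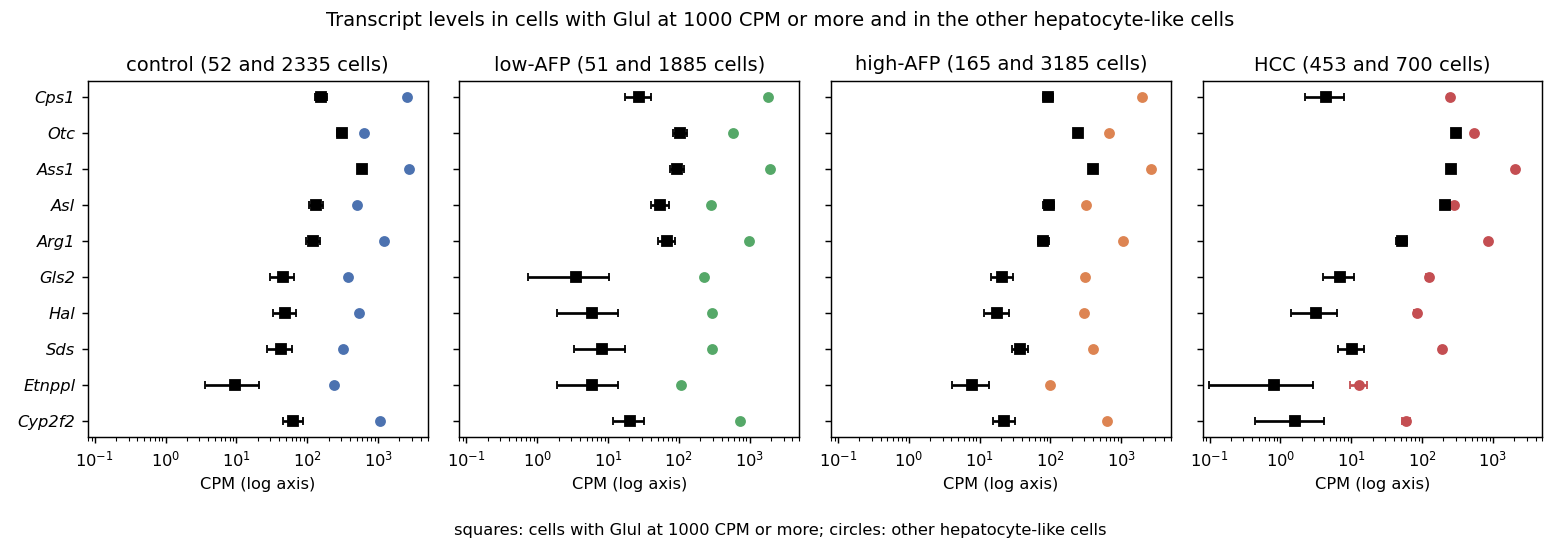
Level of each gene (CPM, log axis) in hepatocyte-like cells with Glul at 1000 CPM or more (squares) and in the remaining hepatocyte-like cells (circles), 1 panel per library with the 2 cell numbers; bars are exact 95% Poisson intervals. Cps1 is lower in the Glul-high cells of every library, and Asl in HCC differs least, at 211 and 286 CPM.

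Afp was detected in 288 HCC cells, which were deeper (median 4263 UMIs) than the 865 without a UMI (1877 UMIs). All 10 genes were lower in the cells with Afp, Etnppl there from 2 UMIs: Otc was at 144 and 771 CPM (-2.34), Ass1 at 503 and 2255 CPM (-2.14) and Cps1 at 101 and 220 CPM (-1.05). In high-AFP 77 cells held Afp, with median depths of 10359 and 13815 UMIs. All 10 genes were lower there too, from -0.37 for Arg1 to -1.02 for Etnppl, with Cps1 at 1285 and 1933 CPM. In HCC, 1018 of the 1456 Afp UMIs came from cluster 22 and 7 from cluster 3. Cluster 3 held 1719 of the 3010 HCC UMIs of Otc and 6024 of the 9081 of Ass1. The HCC cells with and without Afp thus also differed in their clusters. The parts of depth and of clusters in these differences were not tested.

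From cell to cell, pairs of the 10 genes were least correlated in control. Spearman correlations between pairs of the 10 genes, over cells thinned to 3000 UMIs, had medians of 0.15, 0.24, 0.22 and 0.28 over 2147, 1662, 2645 and 441 cells. Of 45 pairs, 1, 15, 16 and 19 were at 0.3 or more. The closest pair was Cps1 and Cyp2f2 in the first 3 libraries, at 0.31, 0.54 and 0.50. In HCC it was Ass1 and Arg1, at 0.75. Cells share a library, and counts are sparse, so these are descriptions, and low values cannot be read as separate variation.

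The genes most like the summed UMIs of the 10 were named by rank of this correlation among genes of at least 100 CPM. Pck1 (0.33, 0.57 and 0.52) and Tat (0.34, 0.46 and 0.47) were among the 5 most alike in the non-tumour libraries. Pck1, phosphoenolpyruvate carboxykinase, is a key step of glucose production, and Tat, tyrosine aminotransferase, of tyrosine breakdown. Serpina1c, a secreted protease inhibitor, was among the 5 in every library, from 0.41 to 0.68. In HCC Fbp1 (0.73), Gnmt (0.69) and Pck1 (0.67) were also among the 5. The most opposed genes were Cyp3a11 in control (-0.43) and high-AFP (-0.45), Cyp2e1 in low-AFP (-0.50) and Glul in HCC (-0.45).

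Genes that supply the urea cycle were read from a fixed list of 11, of which 9 were measured. Between HCC and control 2 were higher and 1 lower, with a median of 0.12, where 13.8% of all genes were higher and 6.3% lower, with a median of 0.27. Slc25a15, the mitochondrial ornithine carrier, was at 329, 263, 296 and 76.4 CPM (-1.97 between HCC and control). Nags, which makes the activator of Cps1, was at 50.6, 50.9, 49.1 and 55.7 CPM, level in all 4. The 2 higher genes were Glul (309, 249, 362 and 3464 CPM, 3.44) and Oat, ornithine aminotransferase (418, 172, 353 and 2269 CPM, 2.41), both pericentral. Between low-AFP and control 0 were higher and 1 lower, Oat (-1.24), and between high-AFP and control 0 were past 2-fold either way.

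Of 8 amino acid carriers 7 were measured, and 1 was higher and 3 lower in HCC than in control, with a median of -0.99 against 0.27 for all genes (13.8% higher and 6.3% lower). Slc38a3 (416 to 80.5 CPM, -2.23), Slc38a4 (747 to 166 CPM, -2.11) and Slc7a2 (276 to 63.6 CPM, -1.96), which carry glutamine, neutral and cationic amino acids, were lower. Slc1a2, a glutamate carrier of pericentral hepatocytes, was higher (39.7 to 622 CPM, 3.67). Of 25 genes of amino acid breakdown, 0 were higher and 8 lower, with a median of -0.68 against the same values for all genes. Tat (1462 to 187 CPM, -2.91), Gldc of glycine cleavage (308 to 38.5 CPM, -2.71) and Uroc1, the step after Hal in histidine breakdown (409 to 71.6 CPM, -2.36), were lowest. Amdhd1 (-0.86) and Ftcd (-0.66), the following steps, were not past 2-fold. In low-AFP 1 of the 25 was lower than in control, Tat (683 CPM, -1.09), and in high-AFP 0.

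Of 12 other periportal genes measured, 0 were higher and 10 lower in HCC than in control, with a median of -1.35, where 13.8% of all genes were higher and 6.3% lower, with a median of 0.27. G6pc, glucose-6-phosphatase, was at 705, 491, 392 and 51.0 CPM (-3.55), Pigr, the antibody transporter, at 1280, 1096, 1108 and 110 CPM (-3.43), and Pck1 at 1877, 1887, 1628 and 309 CPM (-2.56). Fbp1 (1362 to 1106 CPM, -0.30) and Spp2 (121 to 158 CPM, 0.36) were not past 2-fold. In high-AFP 2 of 12 were lower than in control, Apoa4 (-1.33) and Ctsc (-1.09). The 12 pericentral index genes split, with 5 higher and 2 lower in HCC and a median of 0.55 against 0.27: Lect2 (3.03), Oat (2.41) and Cyp1a2 (2.15) were the most higher and Cyp2c54 (-2.30) the most lower.

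Of 14 regulators of these genes, all measured, 1 was higher and 1 lower in HCC than in control, where 13.8% of all genes were higher and 6.3% lower. Their median was -0.44 against 0.27. Cebpb, a C/EBP factor, was at 145, 213, 383 and 390 CPM (1.37), and Klf15, a factor for amino acid breakdown genes, at 139, 101, 129 and 63.3 CPM (-1.03). Hnf4a, a hepatocyte identity factor, was at 209, 214, 242 and 145 CPM (-0.50), and Cebpa at 253, 236, 318 and 157 CPM (-0.66). Cebpb was also higher in high-AFP than in control (1.34).

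Outside hepatocyte-like cells, hepatocyte RNA free in the suspension gives a level in every class, so each gene was compared with the hepatocyte markers of the same class. A gene was named where it stood at 4 times or more of the ratio found in hepatocyte-like cells, with at least 20 UMIs. Asl met this in 5 immune classes of HCC: conventional dendritic-like (11.2 times, 9.79 to 12.8), NK-like (9.92 times), plasmacytoid dendritic-like (8.30 times), macrophage-like (5.56 times) and monocyte-like (4.94 times). Asl in those classes was at 26.4 to 39.2 CPM. In low-AFP it met this in conventional dendritic-like (5.42 times) and macrophage-like cells (4.41 times). Ass1 met it in conventional dendritic-like cells of HCC (7.80 times, 7.27 to 8.36), where 59.7% of 575 cells held a UMI at a level of 120 CPM, and in plasmacytoid dendritic-like cells (4.30 times). Arg1, known also from some macrophages, did not: in HCC it was at 0.401 times that ratio in macrophage-like and 0.176 times in monocyte-like cells.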

How the data were processed

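The deposited matrices hold UMI counts, whole numbers per gene and barcode, not normalized. Per the file headers they were written by Cell Ranger 3.0.2, and the submitters' processing notes also name R 3.0, Seurat 3 and mm9. No coordinate of the matrices was used. Barcodes with at least 300 genes, 500 UMIs and at most 30% mitochondrial UMIs were kept. This removed for mitochondrial UMIs 23.8%, 20.7%, 16.1% and 5.21% of all barcodes (control, low-AFP, high-AFP, then HCC), which had 71957655, 80505127, 97393862 and 65326793 UMIs in total. Scrublet's automatic threshold marked under 0.5% in each library, so 323, 230, 575 and 513 barcodes of highest score were removed, at 0.8% per 1000 barcodes. Libraries shared at most 26 barcodes pairwise.

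Counts were clustered together in scanpy 1.11.5 with leidenalg 0.10.2 (2000 variable genes without the 10, 30 components, 15 neighbours, resolution 1), giving 37 clusters of 26558 cells. Clusters were named from fixed markers; 1, of low depth, stayed unnamed. Keeping cluster 17, which had the lowest hepatocyte marker score, was decided after the clusters were seen and before the levels of the 10 genes were read. The fold rule recovered all 4-fold and 8-fold changes in counts simulated with counting error alone. Such changes lie past the 2-fold threshold, so this checks the calculation only. Variation between animals, cells or clusters was not simulated.

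The 10 genes, the lists and the tests were chosen with earlier results of these data known. Named beyond the 10 were the up to 4 genes of a list with the largest fold, regulators, the genes most alike over cells, and genes past the ratio in other classes. A gene that this rule took in HCC is not reported here. Fbp1, Spp2, Nags, Amdhd1 and Ftcd, and clusters by number, were named after their values were seen. Other settings tried are in the closing section. Because each group is 1 library, p-values and standard errors were not computed. Sequences were taken from a RefSeq promoter table of GRCm38.p6.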

Additional observations from a re-analysis of the deposited data

How the results depend on the processing

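Alternatives changed 1 choice at a time: filters, doublets, clustering, the class, the added CPM, the minimum, weighting and denominator. Cluster 3 alone, leaving out clusters 3 and 20, leaving out cluster 17, and cells of 1000 to 5000 UMIs were chosen after seeing the data. Genes at least 2-fold lower in low-AFP than in control numbered 4 with a mitochondrial limit of 15%, 3 among cells of 1000 to 5000 UMIs, and 0 in cluster 3 alone, with 50 CPM added, with cells weighted equally and with all UMIs as denominator, against 1. In high-AFP against control they numbered 2 at the 15% limit, 4 in cells of 1000 to 5000 UMIs and 0 with 50 CPM added, against 1. The 15% limit left only 396 of 2387 control cells. In HCC, cluster 3 alone gave 4 genes lower than control, against 7, and 3 lower than high-AFP, against 6. Of all genes there, 4.79% were lower than control and 0.331% lower than high-AFP. Arg1 in HCC against control reversed there, at 0.44. Over 17 alternatives the HCC difference from control stayed at least 2-fold in Cps1 (-4.75 to -1.35), Hal, Etnppl and Cyp2f2, while Otc ran from -1.30 to 0.52, the latter in cluster 3 alone. With doublets kept, 5 genes were lower and Otc was at 0.11. Along the index, 3 bins gave 3 lower genes in control and 4 in low-AFP, and 10 bins gave 9 in high-AFP. The share of all genes was not computed for 3 or 10 bins, so these counts have nothing to be set beside. The share of cells with all 5 enzymes at 3000 UMIs was 56.2%, 32.9%, 37.8% and 8.84%. In all, 180 summary values stayed the same and 18 moved. Of 850 single-gene values under an alternative, 494 stayed within the counting interval of the main value, 355 moved, and 1 past 2-fold in the main analysis, Arg1, changed sign. Counting values not past 2-fold, 31 changed sign, most often Ass1 in high-AFP against control (4 of 17; Otc changed sign in 3 of 17 in low-AFP and in HCC against control). No paired analysis was possible because each group is 1 library. Depth limits most the genes with few UMIs in HCC, such as Etnppl with 56.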
